A study of Mus musculus with 6 samples.

Results

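The hypoxia response genes described here are 8 genes of the cellular answer to low oxygen: Hif1a, Egln1, Egln3, Bnip3, Adm, Ndrg1, Ero1l and Vegfa. They were taken by symbol from the deposited table of all genes, which holds 13940 symbols, and all 8 had a row and were tested among 13042 genes. The libraries hold RNA bound to tagged ribosomes, precipitated from the site of a spinal cord contusion at T8 in mice, with 3 libraries from 7 days and 3 from 3 days after injury. All 6 came from LysMCre:Rplfl/fl > CD45.1 chimeras of strain CD45.1. LysM-Cre is active in macrophages and also in other myeloid cells such as neutrophils, and it switches on the tag on a ribosomal protein; host cells without Cre carry no tag. Neither uninjured cord nor RNA without precipitation was sampled, and every change is 7 days minus 3 days. The labels give no age or sex and do not say whether animals were pooled or how many animals the libraries stand for, so the p-values cover only the spread among the 6 libraries, which may be technical.

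The transcription factor HIF-1 is built from an oxygen-regulated alpha subunit, encoded by Hif1a, and a stable partner, encoded by Arnt. With oxygen present, prolyl hydroxylases of the Egln family mark the alpha subunit, the ubiquitin ligase subunit Vhl recognises the mark and the protein is degraded; with oxygen scarce it accumulates and binds a short core motif at its targets. Much of this control acts on the protein, which ribosome-bound RNA does not show. In macrophages the pathway is known for glycolysis, for the release of the angiogenic factor VEGF-A and for mitochondrial turnover, and Hif1a itself is also induced by inflammatory signals.

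The core letters bound by HIF, ACGTG or GCGTG, were searched on both strands of RefSeq promoter windows (GRCm38.p6, which is mm10), each running from 250 bases before to 50 bases after a gene's start. A window was found for 7 of the 8 genes, with the symbol Ero1a for Ero1l, and 8 windows in all because Vegfa had 2. At least 1 match lay in 7 of the 8 windows; of all 32851 windows in that table, 43.8% held at least 1 match, 19.6% held ACGTG and 32.4% held GCGTG. Bnip3 had 5 matches and Hif1a 3, of which a pair in each overlaps as CACGTG read on both strands, Ero1l had 3, Egln1 and Adm had 2 each and Egln3 had 1. The window at the start of Vegfa had 0, and the other, inside the gene at chr17:46025114-46025413, had 2. The Hif1a window, at chr12:73907617-73907916 on the plus strand, also lay inside the gene, whose deposited row starts at 73901333. A match is a description of letters and not a binding site. Shown 5′ to 3′ on the gene's strand are the windows of Adm, Egln3 and Vegfa, 3 genes called lower at 7 days below, and of Bnip3, which was not called; capitals mark the motif on either strand. The windows are chr7:110627407-110627706 (plus strand), chr12:54203825-54204124, chr17:46032328-46032627 and chr7:138909457-138909756 (minus strand).
Adm: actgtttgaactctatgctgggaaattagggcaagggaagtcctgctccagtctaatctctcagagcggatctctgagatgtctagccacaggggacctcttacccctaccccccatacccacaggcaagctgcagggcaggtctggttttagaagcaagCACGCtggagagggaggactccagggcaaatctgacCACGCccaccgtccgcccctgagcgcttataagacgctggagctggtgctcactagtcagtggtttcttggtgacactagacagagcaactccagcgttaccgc
Egln3: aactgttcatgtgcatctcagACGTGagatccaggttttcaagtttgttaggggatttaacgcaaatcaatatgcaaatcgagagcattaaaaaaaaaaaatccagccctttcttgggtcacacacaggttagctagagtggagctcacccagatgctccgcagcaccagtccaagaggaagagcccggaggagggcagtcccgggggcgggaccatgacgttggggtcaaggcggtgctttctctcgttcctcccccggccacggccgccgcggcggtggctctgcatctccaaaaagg
Vegfa: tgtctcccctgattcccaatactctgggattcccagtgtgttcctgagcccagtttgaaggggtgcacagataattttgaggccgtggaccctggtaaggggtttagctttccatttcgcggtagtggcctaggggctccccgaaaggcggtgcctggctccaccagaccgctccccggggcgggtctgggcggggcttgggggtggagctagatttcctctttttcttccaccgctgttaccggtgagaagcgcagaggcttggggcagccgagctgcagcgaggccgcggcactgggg
Bnip3: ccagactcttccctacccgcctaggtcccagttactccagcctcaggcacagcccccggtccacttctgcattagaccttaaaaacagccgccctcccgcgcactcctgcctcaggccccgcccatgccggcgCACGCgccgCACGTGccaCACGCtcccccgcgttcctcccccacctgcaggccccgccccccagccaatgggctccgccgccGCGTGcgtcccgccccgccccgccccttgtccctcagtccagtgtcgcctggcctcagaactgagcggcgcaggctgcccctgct

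At 7 days, 4 of the 8 genes were lower and 0 were higher: Hif1a, Egln3, Vegfa and Adm fell, while Egln1, Bnip3, Ndrg1 and Ero1l were not called. At an unadjusted limma p under 0.05 the counts were the same, 4 lower and 0 higher. Values are FPKM, fragments counted relative to transcript length and library size, so levels can be set side by side between genes. A gene was called at a Benjamini-Hochberg adjusted p of 0.05 or less in limma on log2(FPKM + 1), fitted to all 13042 genes. Of all genes tested, 39.1% were called, 20.3% lower and 18.8% higher at 7 days. The median log2 change of the 8 genes was -0.30, beside -0.04 for all genes tested. The 3 libraries of each time did not overlap in the same 4 genes; of all genes tested, 55.4% did not overlap and 28.6% lay lower at 7 days without overlap. With 3 libraries a time, the smallest p an exact permutation test allows is 0.1, which was its value for each of these 4 genes. In the authors' deposited table, Hif1a (q = 0.0081), Vegfa (q = 0.000313) and Adm (q = 0.00181) had a q-value of 0.05 or less, as did 38.4% of the genes tested, and Egln3 did not (q = 0.177). Without any single library the number called lower was 2 or 3, since Vegfa and Egln3 lost their calls as given beside them. Of all 13042 genes tested, 1697 to 2565 were then called lower, beside 2645 with every library.

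**Figure D1:**
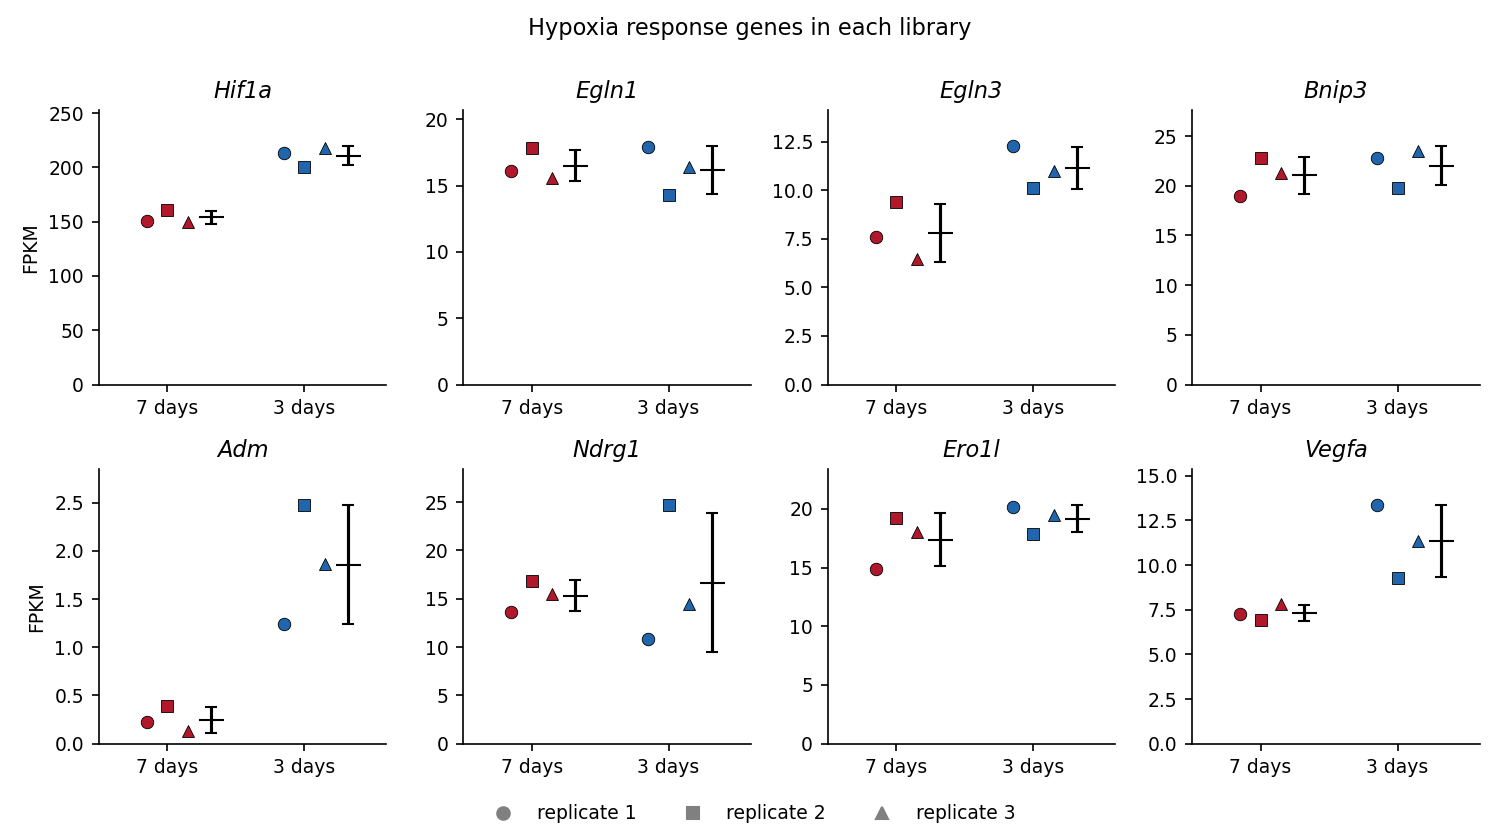
FPKM of each of the 8 genes in the 3 libraries at 7 days (red) and the 3 at 3 days (blue); symbols are single libraries by replicate number, and the black bar is the mean with its SD (n = 3). The times are apart for Hif1a, Egln3, Adm and Vegfa and overlap for the other 4 genes; each panel has its own axis from 0.

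Several features of the libraries moved between the times. Summed FPKM of 7 tested macrophage markers overlapped, at 1373 to 1410 at 7 days and 1303 to 1490 at 3 days, with 3 markers called higher and 2 lower. The macrophage markers Emr1 and Lyz2 were set aside before the fit and are not in this sum. Emr1 measured 390, 444 and 458 FPKM at 7 days and 204, 219 and 240 FPKM at 3 days, higher at 7 days without overlap. Lyz2 overlapped, at 9435, 5862 and 0 FPKM at 7 days and 4108, 2900 and 4272 FPKM at 3 days. Sums at 7 days and 3 days were 194 to 249 and 491 to 570.3 for 8 inflammatory monocyte markers (6 lower), 2154 to 2364 and 686 to 866 for 6 microglia markers (5 higher), and 81.2 to 98.9 and 86.0 to 98.6 for 8 neutrophil markers (2 higher, 3 lower). For cells that should carry no tag they were 26.5 to 31.4 and 41.8 to 68.4 for 7 endothelial, 97.2 to 121 and 201 to 572 for 7 astrocyte, 132 to 158 and 309.7 to 623 for 7 oligodendrocyte, 49.8 to 64.1 and 152 to 371 for 8 neuron, and 15.9 to 22.4 and 164 to 213 for 4 erythroid markers. For 5 fibroblast and pericyte markers they were 96.6 to 177 and 100.2 to 252. No tested marker was at 0 in every library. The highest astrocyte, oligodendrocyte, neuron, endothelial and fibroblast sums were all in 3-day replicate 2, and 3-day replicate 3 held 27.6% of its summed FPKM in its 50 most abundant tested genes, beside 14.6% to 19.7% in the other libraries. The number of reads per library is unknown. In bulk libraries, fewer cells of a type and less RNA per cell cannot be told apart.

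Hif1a (chromosome 12, 73901333 to 73949665), the oxygen-regulated alpha subunit of HIF-1, measured 151, 161 and 149.6 FPKM at 7 days and 213, 201 and 218 FPKM at 3 days. Every 7-day library lay below every 3-day library, and the gap between the times was wider than the spread within either. The means were 154 ± 6.31 and 211 ± 8.93 FPKM (SD, n = 3), a log2 change of -0.45 ± 0.09 (SE; limma adjusted p = 0.00934), so the 7-day level was 0.73 times the 3-day level. The call held under all 15 alternatives, with adjusted p from 0.00241 to 0.0416. It was the most abundant of the 8 genes in every library, and its mean over the 6 libraries stood at percentile 97.7 of all genes tested. The inflammatory monocyte markers, whose summed levels also differed without overlap, are given above; their part in the fall of Hif1a was not tested. With libraries centred on the macrophage markers, Hif1a had a log2 change of -0.50.

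Epas1, which encodes the alpha subunit of HIF-2 and is regulated by oxygen through the same hydroxylases, moved the other way. It measured 30.3, 25.5 and 29.3 FPKM at 7 days and 13.7, 15.3 and 15.8 FPKM at 3 days, a log2 change of 0.88 ± 0.11 (SE; limma adjusted p = 0.00148). All 3 libraries at 7 days were above all 3 at 3 days, and the call held under all 15 alternatives. The ratio of Hif1a to Epas1 within a library, which does not depend on how libraries are scaled, was 4.99, 6.31 and 5.11 at 7 days and 15.6, 13.1 and 13.8 at 3 days. Hif1a was thus the more abundant of the pair in all 6 libraries, by a smaller margin in each 7-day library. The exact permutation test of this ratio gave p = 0.1, the smallest it can give; the ratios in this text were chosen after the values were seen. Arnt, the stable partner, averaged 25.0 ± 1.89 FPKM at 7 days and 24.6 ± 1.22 FPKM at 3 days (log2 change 0.02, limma adjusted p = 0.863). Its paralogue Arnt2, best known from neurons, fell to 4.33 ± 1.47 FPKM at 7 days, against 14.4 ± 6.26 FPKM at 3 days (limma adjusted p = 0.0118), and was highest, at 21.1 FPKM, in 3-day replicate 2, the library with the highest neuron marker sum.

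Of the prolyl hydroxylases, Egln3 fell and Egln1 was not called. Egln3 (chromosome 12, 54179254 to 54203868) encodes the hydroxylase PHD3 and is itself a HIF target. It measured 7.60, 9.41 and 6.44 FPKM at 7 days and 12.3, 10.1 and 11.0 FPKM at 3 days. The times did not overlap, although 7-day replicate 2 and 3-day replicate 2 lay close together. Its log2 change was -0.47 ± 0.16 (SE; limma adjusted p = 0.0481), just inside the threshold. The call was lost under 9 of the 15 alternatives, with adjusted p up to 0.14, among them the removal of any single library except 7-day replicate 2 (0.120 without 3-day replicate 1, 0.0649 without 3-day replicate 2, 0.106 without 3-day replicate 3, 0.116 without 7-day replicate 1 and 0.140 without 7-day replicate 3).

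Egln1 (chromosome 8, 124908318 to 124948782) encodes PHD2, the main hydroxylase of HIF-1 alpha at normal oxygen. It measured 16.1, 17.8 and 15.6 FPKM at 7 days and 17.9, 14.3 and 16.4 FPKM at 3 days, so the 7-day range lay inside the 3-day range. The log2 change was 0.03 with a 95% interval from -0.25 to 0.31 (limma adjusted p = 0.856). Egln1 stood above Egln3 in all 6 libraries. The ratio of Egln3 to Egln1 was 0.473, 0.529 and 0.413 at 7 days and 0.687, 0.709 and 0.670 at 3 days, without overlap (exact permutation p = 0.1). Vhl, whose product recognises hydroxylated HIF alpha subunits, rose to 14.1 ± 0.873 FPKM at 7 days, against 8.30 ± 0.622 FPKM at 3 days (log2 change 0.70 ± 0.11, SE; limma adjusted p = 0.00385). Of the 11 listed genes of oxygen sensing and HIF subunits, 2 were higher, 3 were lower and 6 were not called, with a median log2 change of -0.11. The shares were 18.2% higher and 27.3% lower, near the 18.8% and 20.3% of all genes tested, whose median log2 change was -0.04.

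**Figure D2:**
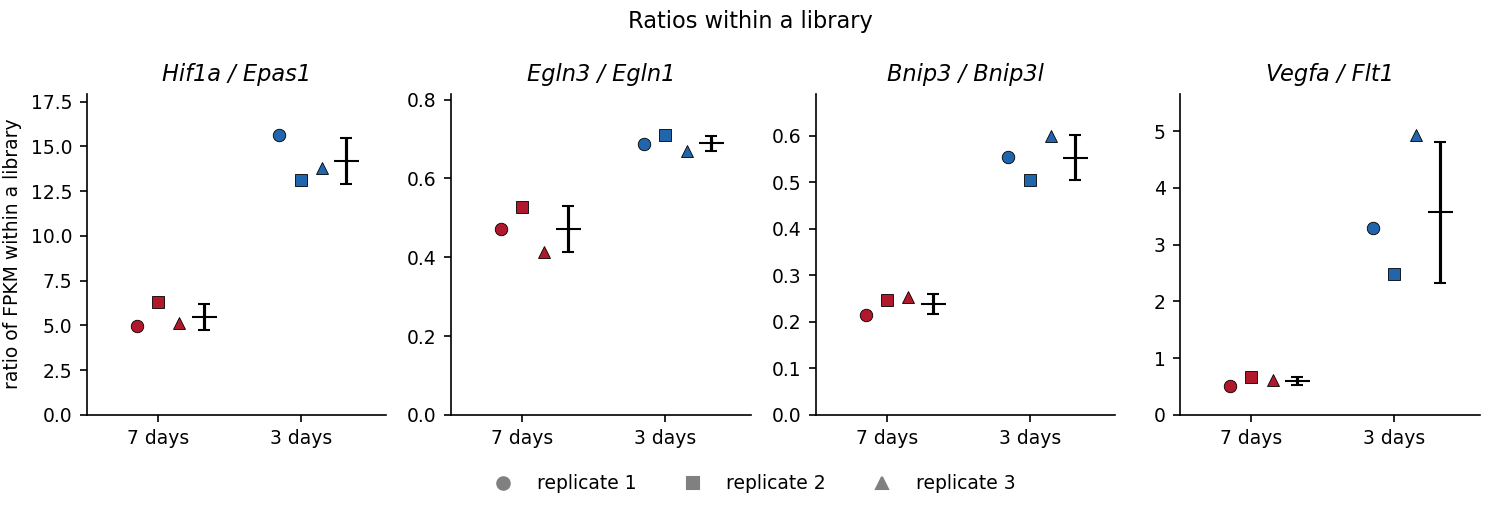
Ratio of FPKM between 2 genes of the same library at 7 days (red) and 3 days (blue), from left Hif1a to Epas1, Egln3 to Egln1, Bnip3 to Bnip3l and Vegfa to Flt1; the black bar is the mean with its SD (n = 3). All 4 ratios were lower in each 7-day library than in each 3-day library, for Hif1a to Epas1 at 4.99 to 6.31 at 7 days and 13.1 to 15.6 at 3 days.

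The secreted factors among the 8 genes, Vegfa and Adm, both fell. Vegfa (chromosome 17, 46017031 to 46032375), the main angiogenic growth factor, measured 7.26, 6.92 and 7.81 FPKM at 7 days and 13.3, 9.30 and 11.4 FPKM at 3 days. The 7-day libraries lay close together and below the more widely spread 3-day libraries. The means were 7.33 ± 0.449 and 11.3 ± 2.02 FPKM (SD, n = 3), a log2 change of -0.56 ± 0.15 (SE; limma adjusted p = 0.0241). The call was lost under 7 of the 15 alternatives with adjusted p up to 0.0786: with quantile normalization (0.0752), with centring on the median gene (0.0634), and without 3-day replicate 1 (0.0581), 3-day replicate 3 (0.0689), 7-day replicate 1 (0.068), 7-day replicate 2 (0.0786) or 7-day replicate 3 (0.0527). Under all 15 the change stayed negative, between -0.68 and -0.44.

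Adm (chromosome 7, 110627714 to 110629609) encodes adrenomedullin, a vasodilator peptide made by endothelial cells, macrophages and others. It measured 0.223, 0.390 and 0.130 FPKM at 7 days and 1.24, 2.47 and 1.86 FPKM at 3 days. It was the least abundant of the 8 genes in every library, and its 6 values separate the times by the widest relative gap among them. The 7-day mean was 0.133 times the 3-day mean, with a log2 change of -1.18 ± 0.21 (SE; limma adjusted p = 0.00543). At levels this low the change on the log2(FPKM + 1) scale understates the fold: it was -2.51 with a pseudocount of 0.1, -0.62 with quantile normalization and -2.91 in the authors' deposited table, and the call held under all 15 alternatives. Endothelial markers fell in the same libraries, with 5 of 7 called lower and 1 higher, and both Adm and the endothelial sum were highest in 3-day replicate 2; their part in the fall of Adm was not tested. Without that library Adm had a log2 change of -1.03 (limma adjusted p = 0.0112).

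On the list of 7 tested secreted vascular factors, 3 were lower, 2 were higher and 2 were not called, with a median log2 change of -0.48. The shares were 42.9% lower and 28.6% higher, beside 20.3% and 18.8% of all genes tested, whose median log2 change was -0.04. Besides Vegfa and Adm, Edn1, the vasoconstrictor endothelin, fell to 0.156 ± 0.102 FPKM at 7 days, against 1.14 ± 0.571 FPKM at 3 days (limma adjusted p = 0.0242). Opposite to Vegfa, its relative Vegfb rose to 20.05 ± 4.59 FPKM at 7 days, against 11.1 ± 2.45 FPKM at 3 days (limma adjusted p = 0.0241). Angptl4, an inhibitor of lipoprotein lipase, rose to 15.1 ± 1.41 FPKM at 7 days, against 8.11 ± 1.84 FPKM at 3 days (limma adjusted p = 0.00923). Vegfa stood below Vegfb in all 3 libraries at 7 days, at 0.488, 0.293 and 0.361 times its level, and at 1.59, 0.792 and 0.861 times at 3 days. The count lower was 1 without any single 7-day library and with quantile normalization, and the count higher was 1 when 3-day replicate 1, 3-day replicate 2, 7-day replicate 2 or 7-day replicate 3 was left out; Edn1 lost its call without 3-day replicate 1 or any 7-day library (adjusted p up to 0.0776) and with quantile normalization (0.212), and Vegfb when any of the 4 libraries just named was left out (0.0571 to 0.0852).

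Of 8 listed receptors for these ligands, 2 were set aside before the fit. Among the 6 tested, 3 were higher, 0 were lower and 3 were not called in limma. The 2 set aside, Ramp2 and Nrp2, have no call but lay lower at 7 days without overlap. Ramp2 averaged 1.11 FPKM at 7 days and 4.78 FPKM at 3 days, and Nrp2 averaged 128 and 153 FPKM. Flt1, the VEGF receptor 1 that monocytes and macrophages also carry, measured 14.0, 10.4 and 12.6 FPKM at 7 days and 4.04, 3.74 and 2.31 FPKM at 3 days (log2 change 1.63 ± 0.20, SE; limma adjusted p = 0.00137). Vegfa was below Flt1 in every 7-day library and above it in every 3-day library. Nrp1, a co-receptor of VEGF-A, rose to 232 ± 8.84 FPKM at 7 days, against 153 ± 12.3 FPKM at 3 days (limma adjusted p = 0.00446). Calcrl, the receptor that binds adrenomedullin together with a Ramp protein, rose to 28.3 ± 5.48 FPKM at 7 days, against 15.9 ± 3.80 FPKM at 3 days (limma adjusted p = 0.017), and lost its call without 3-day replicate 3 (0.0522) or 7-day replicate 3 (0.0566). Kdr, the main endothelial VEGF receptor, was not called (10.9 ± 0.671 FPKM at 7 days and 13.7 ± 1.54 FPKM at 3 days; limma adjusted p = 0.0858). At an unadjusted limma p under 0.05, 3 receptors were higher and 1, Kdr, was lower.

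Neither Bnip3, an effector of mitochondrial turnover, nor Ndrg1, an effector of cell stress, was called. Bnip3 (chromosome 7, 138888961 to 138909493), a receptor on the outer mitochondrial membrane that brings mitochondria into autophagy, measured 19.0, 22.8 and 21.3 FPKM at 7 days and 22.8, 19.8 and 23.5 FPKM at 3 days. The ranges overlapped over most of their length. The log2 change was -0.06 with a 95% interval from -0.33 to 0.20 (limma adjusted p = 0.677).

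Bnip3l, also called Nix, is a close relative of Bnip3 that also brings mitochondria into autophagy, and it rose. It measured 88.6, 92.1 and 83.9 FPKM at 7 days and 41.1, 39.2 and 39.2 FPKM at 3 days, a log2 change of 1.13 ± 0.09 (SE; limma adjusted p = 0.000306), and the call held under all 15 alternatives. Bnip3 stood at 0.215, 0.247 and 0.254 times the level of Bnip3l at 7 days and at 0.554, 0.504 and 0.600 times at 3 days (exact permutation p = 0.1). Of the 6 tested mitochondrial HIF targets, 1 was higher (16.7%, beside 18.8% of all genes tested), 2 were lower (33.3%, beside 20.3%) and 3 were not called. Fam162a, a mitochondrial protein induced by HIF-1, fell to 41.6 ± 7.30 FPKM at 7 days, against 58.7 ± 2.48 FPKM at 3 days (limma adjusted p = 0.0217). The count lower was 0 when 3-day replicate 2, 3-day replicate 3, 7-day replicate 1 or 7-day replicate 3 was left out, with an adjusted p of 0.0607 to 0.075 for Fam162a; it was 1 without 7-day replicate 2, with quantile normalization, with the 1 FPKM filter and with the replicate block.

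Ndrg1 (chromosome 15, 66931019 to 66969592), a stress-induced gene that is also abundant in oligodendrocytes and Schwann cells, measured 13.6, 16.8 and 15.5 FPKM at 7 days and 10.8, 24.7 and 14.5 FPKM at 3 days. The 3-day libraries spanned the whole 7-day range, and the highest value was in 3-day replicate 2, where the oligodendrocyte marker sum was also highest, at 623 FPKM beside 309.7 and 393 FPKM in the other 3-day libraries. The log2 change was -0.04 with a 95% interval from -0.66 to 0.58 (limma adjusted p = 0.904). Without 3-day replicate 2 the change was 0.26 (limma adjusted p = 0.244). The part of oligodendrocyte RNA in Ndrg1 was not tested. Of the 4 genes of the NDRG family, 1 was called lower (25.0%, beside 20.3% of all genes tested). This was Ndrg4, best known from neurons and heart, at 3.91 ± 0.0774 FPKM at 7 days and 15.3 ± 7.37 FPKM at 3 days (limma adjusted p = 0.00439). Without 3-day replicate 1, 2 of the 4 were called lower, and with the authors' filtered table, in which Ndrg4 was not analysed here, 0.

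Ero1l, the endoplasmic reticulum oxidase that passes oxidising equivalents to protein disulphide isomerases, was not called. Its row covers chromosome 14, 45296693 to 45306661, which is 27.9% of the gene in GENCODE M21 and does not reach its start, so the value describes an inner stretch. It measured 14.9, 19.2 and 18.0 FPKM at 7 days and 20.1, 17.9 and 19.5 FPKM at 3 days, with overlapping ranges. The log2 change was -0.14 with a 95% interval from -0.43 to 0.15 (limma adjusted p = 0.379). On the list of ER oxidative folding, 3 of 6 were lower and 0 were higher, and the 3 were members of the disulphide isomerase family, while its member P4hb was not called (323 ± 17.5 FPKM at 7 days and 328 ± 53.1 FPKM at 3 days; limma adjusted p = 0.974). At an unadjusted limma p under 0.05 the counts were the same. Pdia3 fell to 465 ± 41.7 FPKM at 7 days, against 855 ± 167 FPKM at 3 days (limma adjusted p = 0.00958). Pdia4 fell to 141 ± 5.49 FPKM at 7 days, against 239 ± 36.8 FPKM at 3 days (limma adjusted p = 0.00531). Pdia6 fell to 196 ± 1.44 FPKM at 7 days, against 271 ± 42.5 FPKM at 3 days (limma adjusted p = 0.0319), and lost its call with centring on the median gene (0.0925) and when any library other than 3-day replicate 2 was left out (0.0639 to 0.0926).

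The order of the 8 genes by level was nearly the same at both times. At 7 days the means ran Hif1a, Bnip3, Ero1l, Egln1, Ndrg1, Egln3, Vegfa and Adm, at 154, 21.04, 17.4, 16.5, 15.3, 7.82, 7.33 and 0.248 FPKM. At 3 days Ndrg1 stood above Egln1 and Vegfa above Egln3, with means of 16.7, 16.2, 11.3 and 11.1 FPKM, and the order was otherwise the same. From Bnip3 to the lowest of Ero1l, Egln1 and Ndrg1, the ranges of neighbours in the order of each time overlapped, as did those of Egln3 and Vegfa. Within libraries, Bnip3 nevertheless stood above Ero1l in 3 of 3 at both times, and Egln1 above Ndrg1 in 3 of 3 at 7 days and in 2 of 3 at 3 days; the other overlapping neighbours changed places between libraries. Hif1a was clear of Bnip3, and Adm of the gene above it, at both times. Ndrg1 was clear of Egln3 at 7 days; at 3 days Egln1 was clear of Vegfa, but Ndrg1 in 3-day replicate 1, at 10.8 FPKM, was not.

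The wider pathway, on lists that include glycolysis, held falls and rises. Of 74 tested genes on 10 lists, the 8 included, 24 were lower (32.4%, beside 20.3% of all genes), 12 were higher (16.2%, beside 18.8% of all genes) and 38 were not called, with a median log2 change of -0.22 beside -0.04 for all genes tested. A further 4 were set aside and 9 listed symbols were not analysed here. Without 7-day replicate 1 the count lower was 14 and that higher 12. Without 7-day replicate 3 they were 14 and 9. Counts over all 13042 genes tested also dropped, from 2645 lower and 2453 higher as reported. They were 1788 and 1686 without 7-day replicate 1, and 1837 and 1686 without 7-day replicate 3. Among glycolytic targets, 7 of 15 were lower and 1 was higher, with a median log2 change of -0.32. Eno1, the glycolytic enolase, fell to 291 ± 10.6 FPKM at 7 days, against 692 ± 26.6 FPKM at 3 days (log2 change -1.25, limma adjusted p = 0.000501). Pfkp, a phosphofructokinase, fell to 44.6 ± 2.33 FPKM at 7 days, against 81.7 ± 3.45 FPKM at 3 days (limma adjusted p = 0.000779). Slc16a3, the lactate exporter MCT4, had 13.5 ± 0.727 FPKM at 7 days and 24.5 ± 2.42 FPKM at 3 days (limma adjusted p = 0.00192), and the hexokinase Hk1 had 35.8 ± 4.54 FPKM at 7 days and 54.1 ± 6.44 FPKM at 3 days (limma adjusted p = 0.0119). The count of glycolytic genes lower was 4 without 3-day replicate 3 or 7-day replicate 3 and with centring on the median gene, and the count higher was 0 without any single library, with quantile normalization, with centring on macrophage markers and with 1 prior variance for all genes.

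On the log2(FPKM + 1) scale, the widest falls of the pathway were among the other targets. By the ratio of the 7-day to the 3-day mean, some low genes called lower fell as far or further. Cox4i2, Adm and Edn1 stood at 0.0385, 0.133 and 0.136, beside 0.132 for Arg1 and 0.219 for Hmox1. Arg1, the arginase of alternatively activated macrophages, fell to 67.2 ± 3.09 FPKM at 7 days, against 510.3 ± 103 FPKM at 3 days (log2 change -2.89, limma adjusted p = 8.04e-05). Hmox1, the heme-degrading oxygenase, fell to 267 ± 60.5 FPKM at 7 days, against 1221 ± 206 FPKM at 3 days (log2 change -2.20, limma adjusted p = 0.00066). Both answer to many signals besides oxygen. Errfi1, an inhibitor of the EGF receptor, fell to 6.19 ± 0.35 FPKM at 7 days, against 11.4 ± 1.44 FPKM at 3 days (limma adjusted p = 0.00415). The HIF targets Bhlhe41, a circadian repressor, and Car9, a carbonic anhydrase known as a hypoxia marker, went against Vegfa and Adm. Bhlhe41 rose to 41.9 ± 1.498 FPKM at 7 days, against 19.9 ± 2.88 FPKM at 3 days (limma adjusted p = 0.00108), and Car9 rose to 4.15 ± 0.678 FPKM at 7 days, against 1.86 ± 0.0859 FPKM at 3 days (limma adjusted p = 0.00704). Of 5 genes of collagen modification, 1 was called lower (20.0%, beside 20.3% of all genes tested). This was Lox, a collagen crosslinking enzyme, at 3.297 ± 1.17 FPKM at 7 days and 8.29 ± 3.84 FPKM at 3 days (limma adjusted p = 0.0343). Lox lost the call with quantile normalization (0.0628) and when any library other than 3-day replicate 1 was left out (0.0546 to 0.0962). With 3-day replicate 1 left out, 2 of the 5 were lower.

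**Figure D3:**
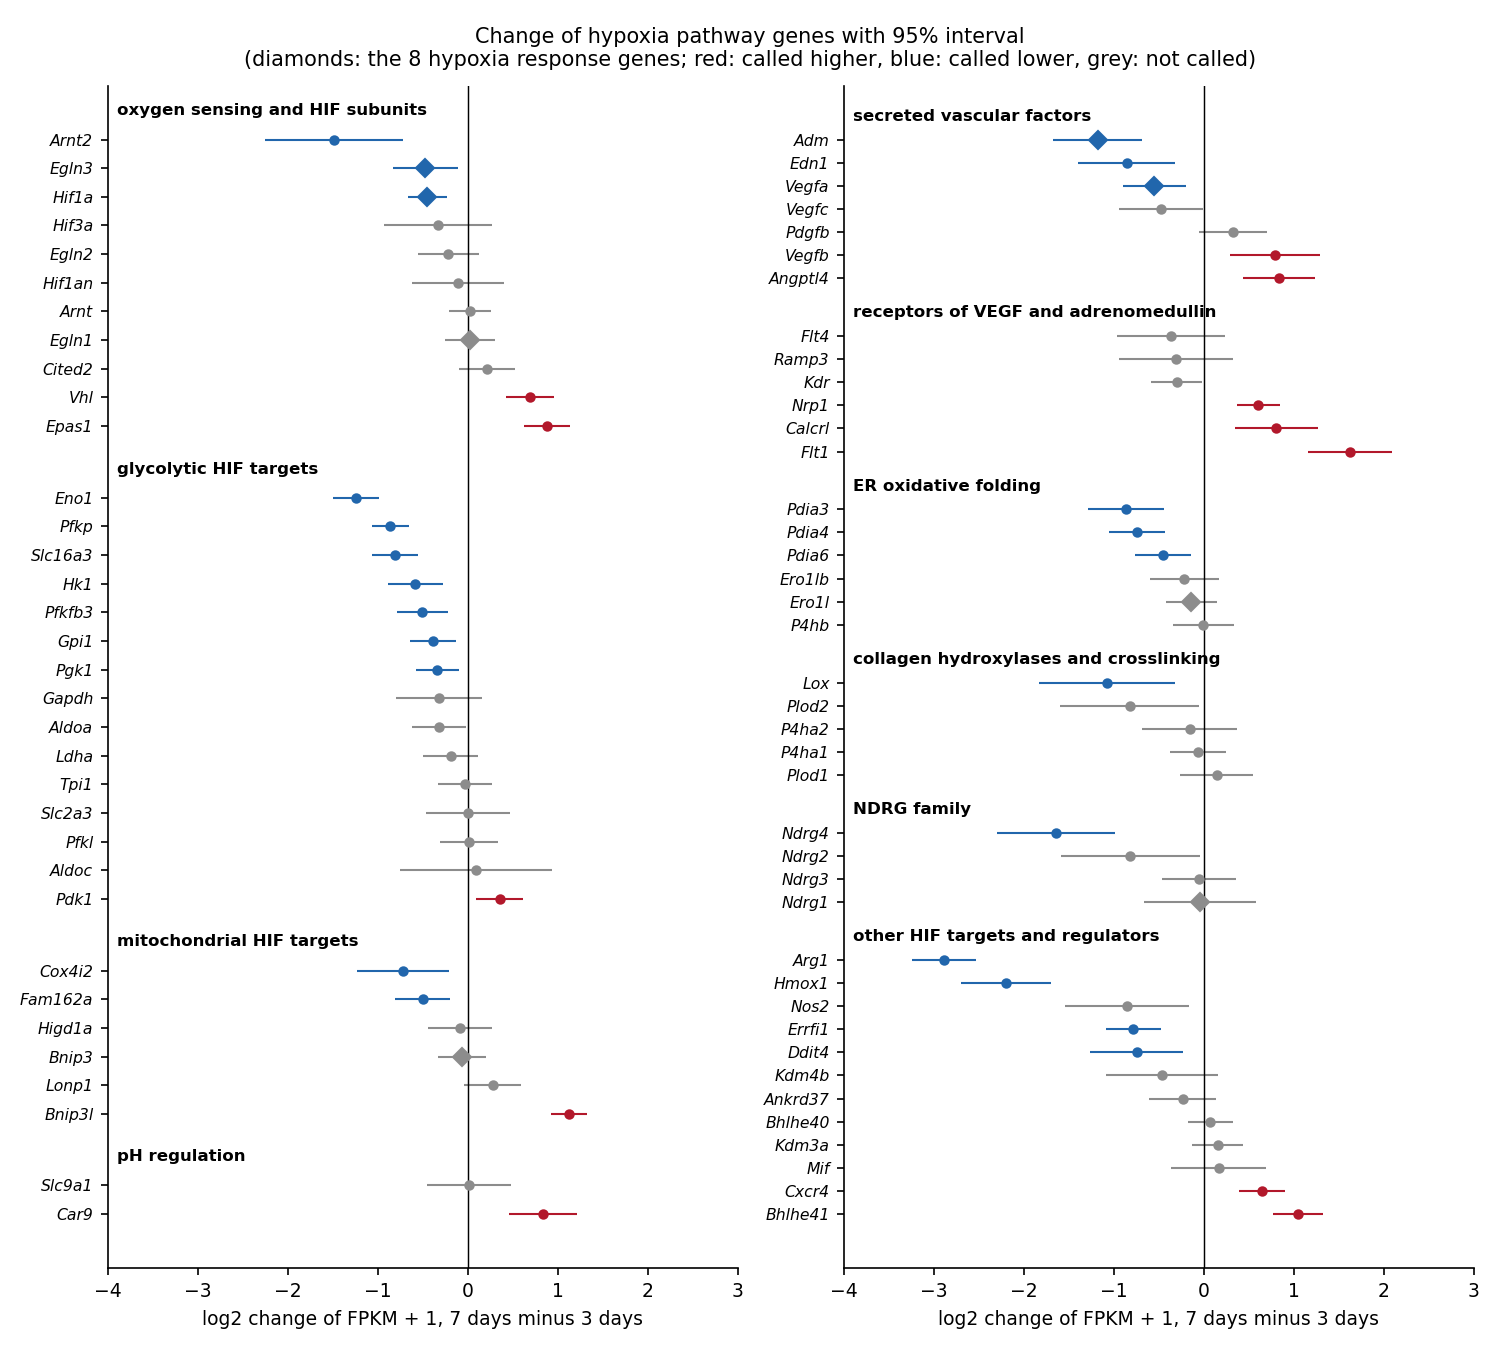
Log2 change of FPKM + 1, 7 days minus 3 days, with its 95% interval from limma, for 74 tested genes of the hypoxia pathway by list; diamonds mark the 8 hypoxia response genes, red genes called higher, blue called lower and grey not called. The listed genes moved both ways, with 24 called lower and 12 called higher.

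Patterns most like those of the 8 genes were looked up among 6563 genes with a mean of 10 FPKM or more at either time, by the root mean square difference of centred log2(FPKM + 1) over the 6 libraries. For Hif1a they were Sec31a (0.0328) and Mthfd1l (0.0424), for Egln3 Mef2d (0.0674) and Atpbd4 (0.0843), for Vegfa Lyar (0.0502) and Upf1 (0.0512), and for Adm Mrps6 (0.0776) and Ctnnal1 (0.0788). Adm lay far below 10 FPKM in every library, where this scale understates its fold, so Mrps6 and Ctnnal1 are like it on this scale only. For the genes not called they were Rsbn1l (0.0112) and Tns3 (0.0174) for Egln1, Mrpl21 (0.0218) and Actb (0.0244) for Bnip3, Alkbh7 (0.031) and Zcrb1 (0.0342) for Ero1l, and Dcaf6 (0.0999) and Laptm4b (0.121) for Ndrg1. Of these 16 genes, 0 were on a pathway list. Only 74 of all 13042 genes tested were on one, so a count of 0 says little about the 8 genes.

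**Figure D4:**
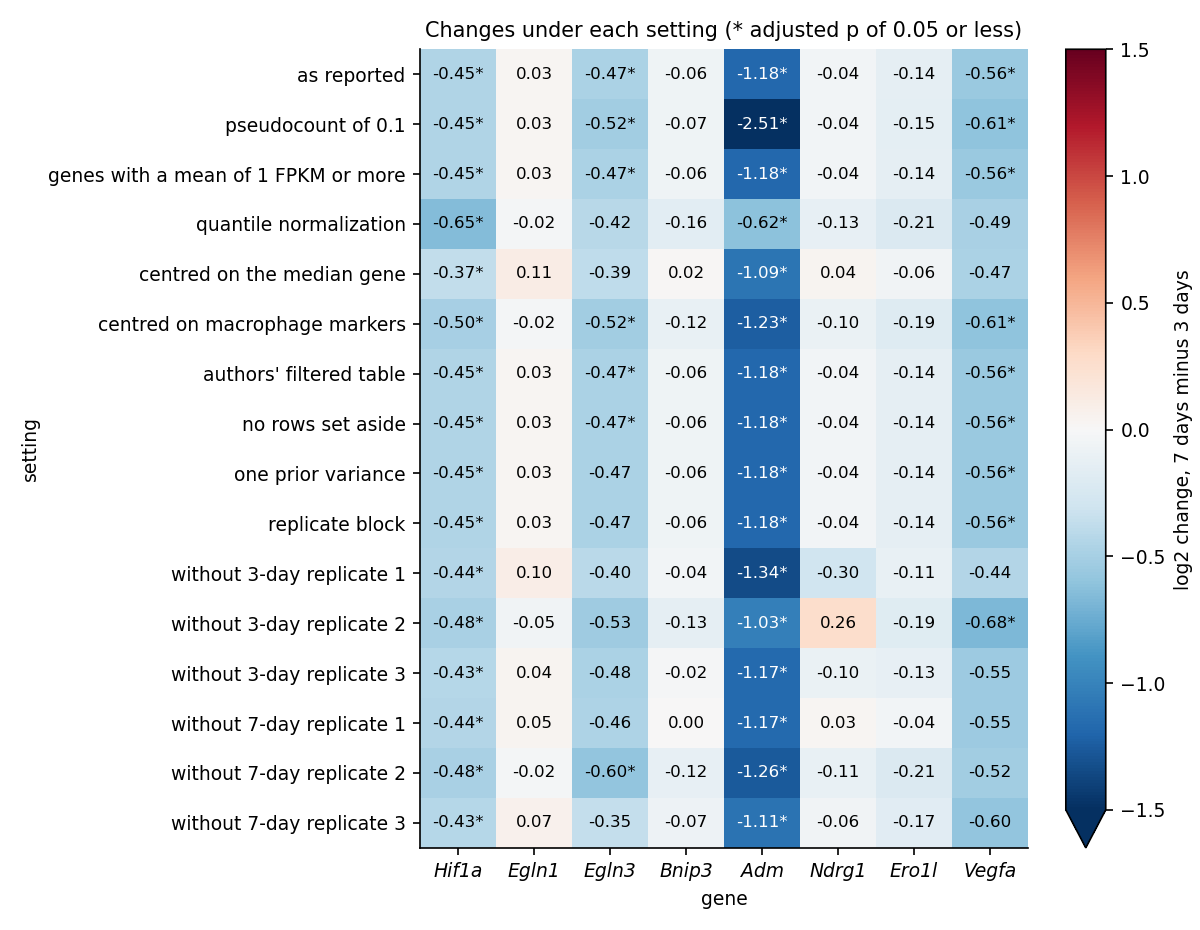
Log2 change of the 8 genes, 7 days minus 3 days, as reported (top) and under 15 other settings; colour and number give the change, and a star marks an adjusted p of 0.05 or less. Hif1a and Adm carry a star in every line, Vegfa and Egln3 in some, and the other 4 genes in none.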

How the data were processed

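The submitters' processing notes name Cuffdiff 2.2.1, Cufflinks 2.2, TopHat2 2.0.12 and build mm10, without their roles; libraries were ScriptSeq v2, per the labels' protocols. The authors deposited FPKM per gene and library, their mean FPKM at each time, a log2 fold change, a test statistic (a score) and p-values and q-values, per the file headers. The scaling between libraries and the use of strand in counting are not stated; annotated antisense genes overlap Hif1a, Bnip3, Adm and Ndrg1, and another coding gene overlaps Hif1a, so their reads cannot be told apart. Coordinates are mm10 as deposited; whether starts count from 0 or 1 is not stated.

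Of 13960 rows, 918 were set aside: 45 for their test status, 838 because the mean of the libraries differed from the authors' mean by over 1%, 14 with a 0 beside 100 FPKM or more and 32 of repeated symbols, with overlaps. Log2(FPKM + 1) of 13042 genes was tested, 7 days minus 3 days, two-sided, with limma 3.58.1 (R 4.3.3, mean-dependent prior variance, Benjamini-Hochberg adjustment) without a filter on low values, after a check on simulated data. Python 3.11.15 with pandas 2.3.3 and scipy 1.17.1 did the rest. FPKM give no read counts, so depth is unknown and no counting interval is given.

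The genes and lists were chosen with earlier results of these data known. Besides the 8 genes, the text names, from each list, the 4 called genes of largest change (or fewer) that reached 1 FPKM in either mean, and 2 genes of like pattern each. One item is not reported here and was taken off its list. Arnt, Kdr, P4hb, Ramp2, Nrp2 and Cox4i2 were named after their values were seen. Settings tried were another pseudocount, filter, scaling, table, set of rows, prior and block, and leaving out each library.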

Additional observations from a re-analysis of the deposited data

How the results depend on the processing

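Hif1a and Adm kept direction and call under all 15 alternatives, and of the 25 other genes named by rule, 19 kept theirs under each alternative that held them and 6 lost it under some; Arnt2, Ndrg4 and Lox were not analysed with the authors' filtered table, nor Edn1 with the 1 FPKM filter. The number of the 8 genes called, all lower, was 2 with quantile normalization, 2 with centring on the median gene, and 2 to 3 without single libraries. Of all 13042 genes tested, 1809 were lower with quantile normalization and 2321 with centring on the median gene, beside 2645 as reported. Over the wider pathway, leaving out single libraries gave 23 to 32 genes called, 14 to 22 of them lower and 9 to 12 higher. Over all genes tested it gave 1697 to 2565 lower and 1572 to 2207 higher. Among these genes, signs turned for 3 that were not called. Egln1 was at -0.0237 with quantile normalization, at -0.0243 with centring on macrophage markers and at -0.0522 to 0.0995 without single libraries; Bnip3 was at 0.0215 with centring on the median gene and at -0.135 to 0.00476 without single libraries; Ndrg1 was at 0.0406 with centring on the median gene and at -0.295 to 0.264 without single libraries. The cause was not tested.

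The replicate numbers are shared between the times, but deviations of same-numbered libraries correlated at 0.181, 0.0458 and 0.0626 over 8067 genes, and 7-day replicate 2 correlated best with 3-day replicate 3, so they were not taken as pairs. With the replicate block, 3 of the 8 genes were called, and Egln3 had an adjusted p of 0.0674. Over the wider pathway 33 were called, 21 lower and 12 higher. Of all 13042 genes tested, 2425 were then lower and 2450 higher. Adm, at 0.130 to 2.47 FPKM, rests on an unknown number of reads.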
